A study of Mus musculus with 13 samples.

Results

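The replication machinery of SM1 tumours was followed through 42 genes chosen by name for their roles in DNA synthesis: origin licensing factors, the MCM helicase, its activators, the sliding clamp and its loader, replication protein A, the polymerases and primase, the enzymes that join the lagging strand, enzymes of nucleotide supply, and chromatin factors that follow the fork. The rule uses names and no measured value. Of these members 41 had a probe set assigned to their symbol alone and all 41 were among the 13783 genes tested, out of 18193 symbols on the array. Chaf1a is not analysed here. Genes had to exceed a log2 intensity of 5.79 on at least 2 arrays to be tested. On every array 39 members did so, and 2, Cdc6 and Tyms, were under it on some. Tyms exceeded it on 3 arrays, all vehicle, and so entered the tests only through the group where it was high. It is kept in the counts below, but its calls lend them no support.

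SM1 is a transplantable mouse melanoma with an activating BRAF mutation, here a tumour line grown in C57BL/6 mice that all received splenocytes by adoptive transfer. Tumours of recipients of pmel-1 splenocytes, whose T cells recognise gp100, a protein of pigment cells, were treated with dabrafenib and trametinib together (the combination, 3 arrays), with the BRAF inhibitor dabrafenib (2 arrays), with the MEK inhibitor trametinib (2 arrays) or with vehicle (2 arrays). Tumours of control recipients, which were given C57BL/6 splenocytes, were treated with the combination (2 arrays) or with vehicle (2 arrays). No single drug was given to control recipients. The sources used here give neither doses, times and animal ages nor whether arrays of a group come from separate animals, so the p-values measure only the spread between these arrays, which may be technical. All tumours are bulk tissue and the hosts' own cells are measured with the tumour cells.

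Before a cell divides, the origin recognition complex (ORC), Cdc6 and Cdt1 load the ring of Mcm2 to Mcm7 onto DNA, a step called licensing that geminin (Gmnn) blocks once synthesis has begun. Cdc45, the GINS complex and Mcm10 turn the loaded ring into a running helicase, and replication protein A coats the exposed single strand. Polymerase alpha with primase, polymerase delta and polymerase epsilon copy that strand, with Pcna as the sliding clamp. Many of these genes are known targets of E2F transcription factors, which the retinoblastoma family holds back until cyclin-dependent kinases act on it. Signalling through BRAF, MEK and ERK is known to feed into that step through cyclin D.

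The values were log2 intensities, with 13 array medians between 6.31 and 6.41, and differences are log2 fold changes ± SE from limma, with p-values adjusted over all genes of a comparison. A gene is said to rise or fall where the adjusted p was under 0.05. The 7 pigment cell markers (Pmel, Dct, Tyr and others) averaged 12.61 to 12.76 on drug-treated arrays, against 11.97 to 12.08 on vehicle arrays. Among them Tyrp1 was dim, at 4.87 to 6.38. The 6 general leukocyte markers (Ptprc among them) averaged 9.45 to 9.96 in pmel-1 combination tumours, 9.33 to 9.94 with dabrafenib and 7.99 to 8.47 with trametinib, against 7.51 to 7.59 in pmel-1 vehicle tumours. In control recipients they averaged 7.61 to 7.74 with the combination, against 6.970 to 6.999 with vehicle. The 7 T cell markers averaged 5.97 to 6.71 on the drug-treated arrays of pmel-1 recipients, against 5.70 to 5.80 with vehicle, and Cd2 was under 5.79 on every array. The 6 macrophage markers (Csf1r, Adgre1 and others) all rose with the combination over both kinds of recipient, with a median change of 1.30. They averaged 9.83 to 10.30 in pmel-1 combination tumours, 9.80 to 10.49 with dabrafenib and 8.86 to 9.28 with trametinib, against 8.55 to 8.62 with vehicle. In control recipients they averaged 9.02 to 9.35 with the combination, against 8.14 to 8.29 with vehicle. Of 5 fibroblast markers (Col1a1, Pdgfra and others) 3 rose, with a median of 1.61 over the 5. The 5 averaged 8.59 to 9.52 in pmel-1 combination tumours, 7.97 to 10.04 with dabrafenib and 8.90 to 9.22 with trametinib, against 8.15 to 8.30 with vehicle. In control recipients they averaged 10.08 to 10.64 with the combination, against 8.17 to 9.48 with vehicle. Pdgfra read lower with the combination, at 5.87 to 6.58 against 6.84 and 7.13 with vehicle in pmel-1 recipients. In control recipients Pdgfra read 6.37 and 6.78, against 6.85 and 7.37. The log2 ratio of 3' to 5' control signal for actin and Gapdh, a sign of RNA quality, was 0.60 to 1.65 on the drug-treated arrays of pmel-1 recipients, against 0.18 to 0.22 with vehicle, and 0.19 to 0.42 with the combination in control recipients, against 0.25 to 0.28 with vehicle. The adipocyte marker Adipoq or the muscle marker Acta1 was high on 5 arrays (pmel-1 combination replicates 2 and 3, dabrafenib replicate 2, trametinib replicate 1 and control vehicle replicate 3). Another adipocyte marker, Fabp4, did not follow this split. It read 10.79 on control vehicle replicate 1 and 10.26 and 10.44 on the pmel-1 vehicle arrays, against 9.48 on pmel-1 combination replicate 3. The part of these differences in the changes of replication genes was not tested, and in bulk tissue fewer cells of a type and less RNA per cell cannot be told apart.

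With the combination the replication genes fell almost as a whole. Over both kinds of recipient 38 of 41 members fell and 1 rose, where 24.5% of all genes tested were called lower and 28.1% higher. The median member changed by -1.07, which is 2.10-fold lower, against a median of 0.01 for all genes tested. Falls of at least 2-fold were called for 23 members, against 4.16% of all genes. Cdc6, which loads the helicase, had the largest change among the members, -2.36 ± 0.13 (adjusted p = 2.27e-07), and was singled out after its values were seen. The exceptions were Rpa1, the large subunit of replication protein A, which rose, and Orc1 and Rfc2, which did not pass on the probe sets used.

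The separation was also visible without a model. All 9 drug-treated arrays read below all 4 vehicle arrays for 36 of 41 members, where 17.2% of all genes did so. The 5 members that overlapped were Orc1, Rfc2, Rpa1, Rpa3 and Rrm2.

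**Figure D1:**
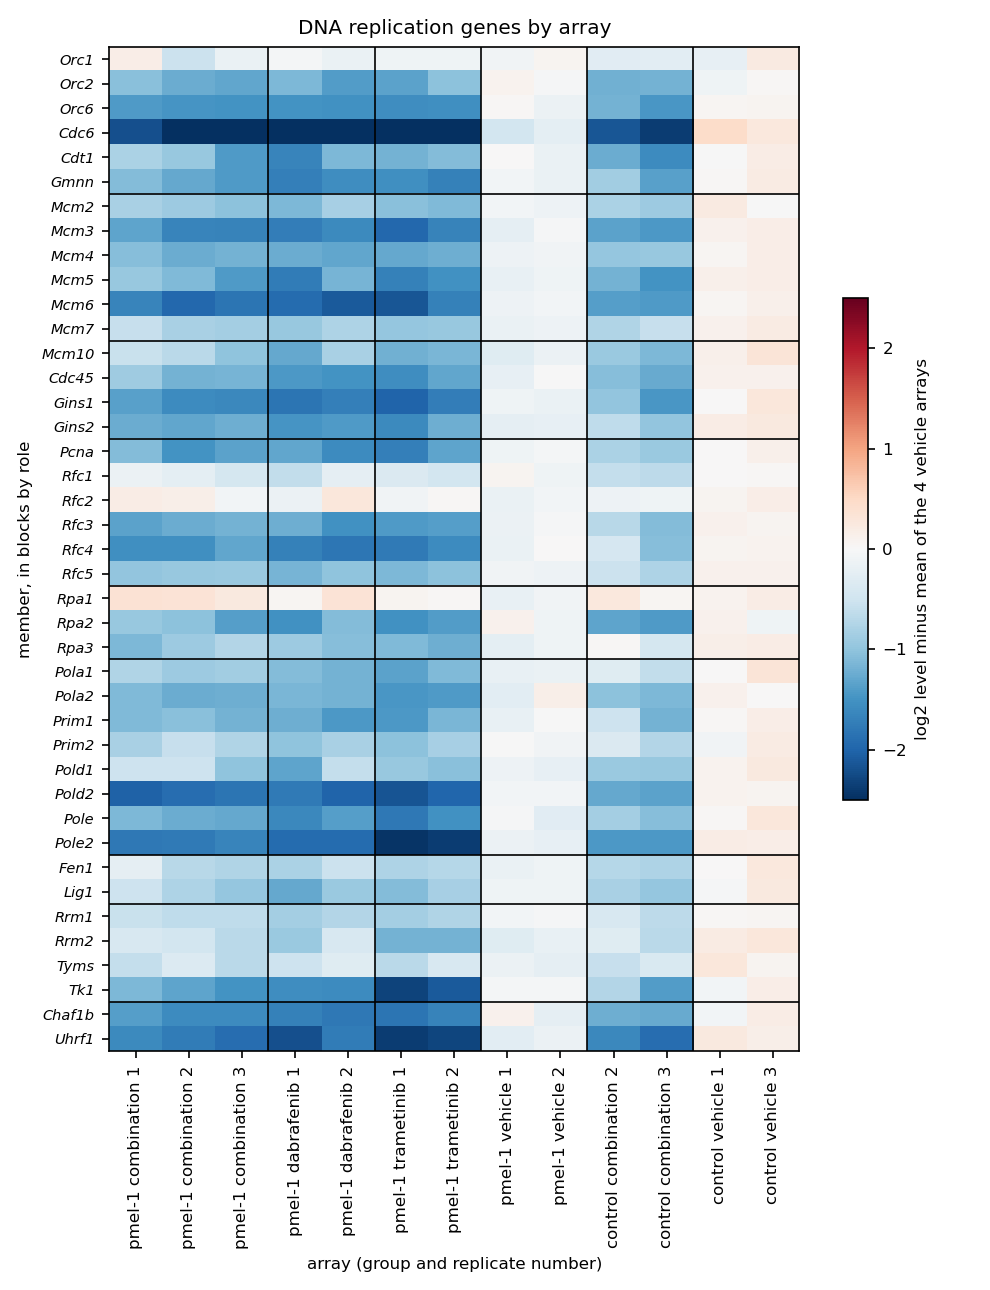
Level of each of the 41 members on each array, as log2 level minus its mean over the 4 vehicle arrays, with members in rows by role and arrays in columns by group. Blue (lower) fills the columns of all drug-treated groups, with Cdc6 darkest (colour stops at -2.5) and Rpa1, Rfc2 and Orc1 as the pale rows.

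Since the members fell together, the sequence before their start sites was examined for E2F motifs. RefSeq promoter windows (GRCm38.p6, 250 bases before to 50 after the start) were matched by symbol for 35 of 42 members. The E2F motif searched was TTT, 2 bases that are each C or G, then CGC, on both strands, so that 1 stretch can be counted on either strand. It occurred in 13 of 35 members (37.1%), against 2.6% of all 27025 genes with a window. It occurred in 1 of 12 genes of the mitosis list (8.33%). The CHR motif (TTTGAA or TTTAAA), known from late cell cycle genes, was in 25.7% of members, in 83.3% of the mitosis list and in 30.6% of all genes. The CCAAT box was in 65.7%, 91.7% and 41.1%. The words found were TTTCCCGC, TTTCGCGC and TTTGGCGC, and a match is a description of letters, not a binding site. The 250 bases before the start of 4 members follow, written 5' to 3' on the gene's strand with E2F matches in capitals, for 2 helicase subunits, for Cdc6 as the member with the largest fall and for Rpa1 as the member that rose.
Mcm6: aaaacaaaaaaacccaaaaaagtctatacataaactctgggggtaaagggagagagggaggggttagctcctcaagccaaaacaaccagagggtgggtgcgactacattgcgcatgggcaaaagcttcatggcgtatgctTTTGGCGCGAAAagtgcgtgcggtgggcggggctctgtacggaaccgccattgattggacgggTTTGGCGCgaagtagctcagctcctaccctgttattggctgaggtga
Mcm5: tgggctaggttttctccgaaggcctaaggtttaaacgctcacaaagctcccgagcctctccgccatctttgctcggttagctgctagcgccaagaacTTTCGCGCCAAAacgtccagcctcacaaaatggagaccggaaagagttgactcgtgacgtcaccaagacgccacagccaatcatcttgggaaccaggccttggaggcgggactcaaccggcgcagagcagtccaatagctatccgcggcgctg
Cdc6: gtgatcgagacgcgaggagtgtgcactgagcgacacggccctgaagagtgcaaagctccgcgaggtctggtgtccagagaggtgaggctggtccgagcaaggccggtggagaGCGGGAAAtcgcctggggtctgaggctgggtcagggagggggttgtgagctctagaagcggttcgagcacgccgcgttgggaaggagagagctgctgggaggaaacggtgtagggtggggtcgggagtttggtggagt
Rpa1: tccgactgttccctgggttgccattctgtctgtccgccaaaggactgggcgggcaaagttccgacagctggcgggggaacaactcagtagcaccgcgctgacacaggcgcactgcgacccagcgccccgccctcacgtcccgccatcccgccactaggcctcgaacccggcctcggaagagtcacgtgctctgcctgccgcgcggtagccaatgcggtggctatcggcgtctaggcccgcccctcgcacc

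The windows lie at chr1:128359706-128359955 on the minus strand for Mcm6, chr8:75109259-75109508 on the plus strand for Mcm5, chr11:98907901-98908150 on the plus strand for Cdc6 and chr11:75348384-75348633 on the minus strand for Rpa1. Mcm6 had 3 matches, of which 2 overlap on opposite strands, Mcm5 had 2 that overlap in the same way, Cdc6 had 1 and Rpa1 had 0. The 2 helicase subunits printed are those with the most matches before the start. The windows of Mcm2, Orc6, Pcna and Rpa2, which also fell, held 0. Of the members called lower with a window, 12 of 32 held the motif (37.5%), so most that fell had no such letters in it. Orc1, which did not pass on the probe set used, held 1 match.

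Of the 6 licensing genes 5 fell, with a median change of -1.21. Orc6 read 9.30, 9.24 and 9.21 in pmel-1 combination tumours, 9.21 and 9.20 under dabrafenib and 9.15 and 9.16 under trametinib, against 10.74 and 10.56 under vehicle. Orc6 in control recipients read 9.53 and 9.26 with the combination, against 10.75 and 10.77 with vehicle. Orc6, the smallest ORC subunit, fell by 1.38 ± 0.07 (adjusted p = 1.87e-07) with the combination over both kinds of recipient, and no treated array reached a vehicle array. Orc1 read 7.09, 6.37 and 6.76 in pmel-1 combination tumours, 6.87 and 6.75 under dabrafenib and 6.81 and 6.81 under trametinib, against 6.84 and 6.99 under vehicle. Orc1 in control recipients read 6.63 and 6.66 with the combination, against 6.70 and 7.14 with vehicle. Orc1, the largest ORC subunit, changed by -0.23 ± 0.14 (adjusted p = 0.19) on this probe set, and its treated and vehicle arrays overlapped. A dimmer probe set of Orc1, above 5.79 on 4 arrays, differed by -1.08 between the combination and vehicle arrays. With the mean of its probe sets Orc1 changed by -0.66 over both kinds of recipient in limma (adjusted p = 3.5e-05). That value was -0.51 (adjusted p = 0.00216) in pmel-1 and -0.80 (adjusted p = 3.5e-04) in control recipients. The mean takes in the dimmer set, which was under 5.79 on most arrays, so these passes lend no support to a fall of Orc1. On the set used Orc1 passed without pmel-1 combination replicate 1, at -0.31 (adjusted p = 0.0401).

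Cdc6 showed the widest range of any member. Cdc6 read 6.46, 6.00 and 6.13 in pmel-1 combination tumours, 5.62 and 6.04 under dabrafenib and 5.52 and 5.91 under trametinib, against 8.19 and 8.41 under vehicle. Cdc6 in control recipients read 6.51 and 6.28 with the combination, against 9.10 and 8.91 with vehicle. Dabrafenib replicate 1 and trametinib replicate 1 were under 5.79, and no treated array reached a vehicle array. The licensing factor Cdt1 and its inhibitor geminin fell side by side. Cdt1 changed by -1.23 ± 0.15 (adjusted p = 3.55e-05) and Gmnn by -1.19 ± 0.11 (adjusted p = 6.20e-06), while the ORC subunit Orc2 changed by -1.19 ± 0.09 (adjusted p = 2.02e-06).

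All 6 subunits of the MCM helicase fell, and for each of them every drug-treated array lay below every vehicle array. The changes ran from -1.61 for Mcm6 to -0.71 for Mcm7. Mcm2 read 10.21, 10.11 and 9.99 in pmel-1 combination tumours, 9.89 and 10.20 under dabrafenib and 9.98 and 9.91 under trametinib, against 10.94 and 10.89 under vehicle. Mcm2 in control recipients read 10.23 and 10.12 with the combination, against 11.24 and 11.00 with vehicle. It fell by 0.88 ± 0.09 (adjusted p = 1.06e-05) with the combination over both kinds of recipient, a gap between groups that exceeded the spread within them. Mcm3 read 10.63, 10.30 and 10.27 in pmel-1 combination tumours, 10.21 and 10.35 under dabrafenib and 9.98 and 10.28 under trametinib, against 11.71 and 11.90 under vehicle. Mcm3 in control recipients read 10.60 and 10.51 with the combination, against 12.05 and 12.11 with vehicle. It fell by 1.46 ± 0.10 (adjusted p = 7.58e-07) with the combination over both kinds of recipient, and every drug-treated array lay below every vehicle array. Mcm4 read 11.50, 11.32 and 11.38 in pmel-1 combination tumours, 11.33 and 11.27 under dabrafenib and 11.28 and 11.34 under trametinib, against 12.43 and 12.48 under vehicle. Mcm4 in control recipients read 11.60 and 11.61 with the combination, against 12.62 and 12.73 with vehicle. It fell by 1.06 ± 0.07 (adjusted p = 4.42e-07) with the combination over both kinds of recipient, and its control combination arrays were nearly equal. Mcm5 read 11.62, 11.44 and 11.14 in pmel-1 combination tumours, 10.81 and 11.40 under dabrafenib and 10.86 and 11.05 under trametinib, against 12.38 and 12.46 under vehicle. Mcm5 in control recipients read 11.38 and 11.06 with the combination, against 12.67 and 12.71 with vehicle. It fell by 1.25 ± 0.14 (adjusted p = 1.87e-05) with the combination over both kinds of recipient, and its dabrafenib arrays lay far apart. Mcm6 read 10.42, 10.10 and 10.26 in pmel-1 combination tumours, 10.15 and 9.97 under dabrafenib and 9.94 and 10.39 under trametinib, against 11.96 and 12.01 under vehicle. Mcm6 in control recipients read 10.70 and 10.65 with the combination, against 12.13 and 12.21 with vehicle. It fell by 1.61 ± 0.10 (adjusted p = 4.63e-07) with the combination over both kinds of recipient, the largest change in the complex. Mcm7 read 12.19, 11.97 and 11.93 in pmel-1 combination tumours, 11.82 and 12.01 under dabrafenib and 11.82 and 11.84 under trametinib, against 12.60 and 12.64 under vehicle. Mcm7 in control recipients read 12.02 and 12.20 with the combination, against 12.88 and 12.98 with vehicle. It fell by 0.71 ± 0.08 (adjusted p = 2.69e-05) with the combination over both kinds of recipient, the smallest change in the complex.

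**Figure D2:**
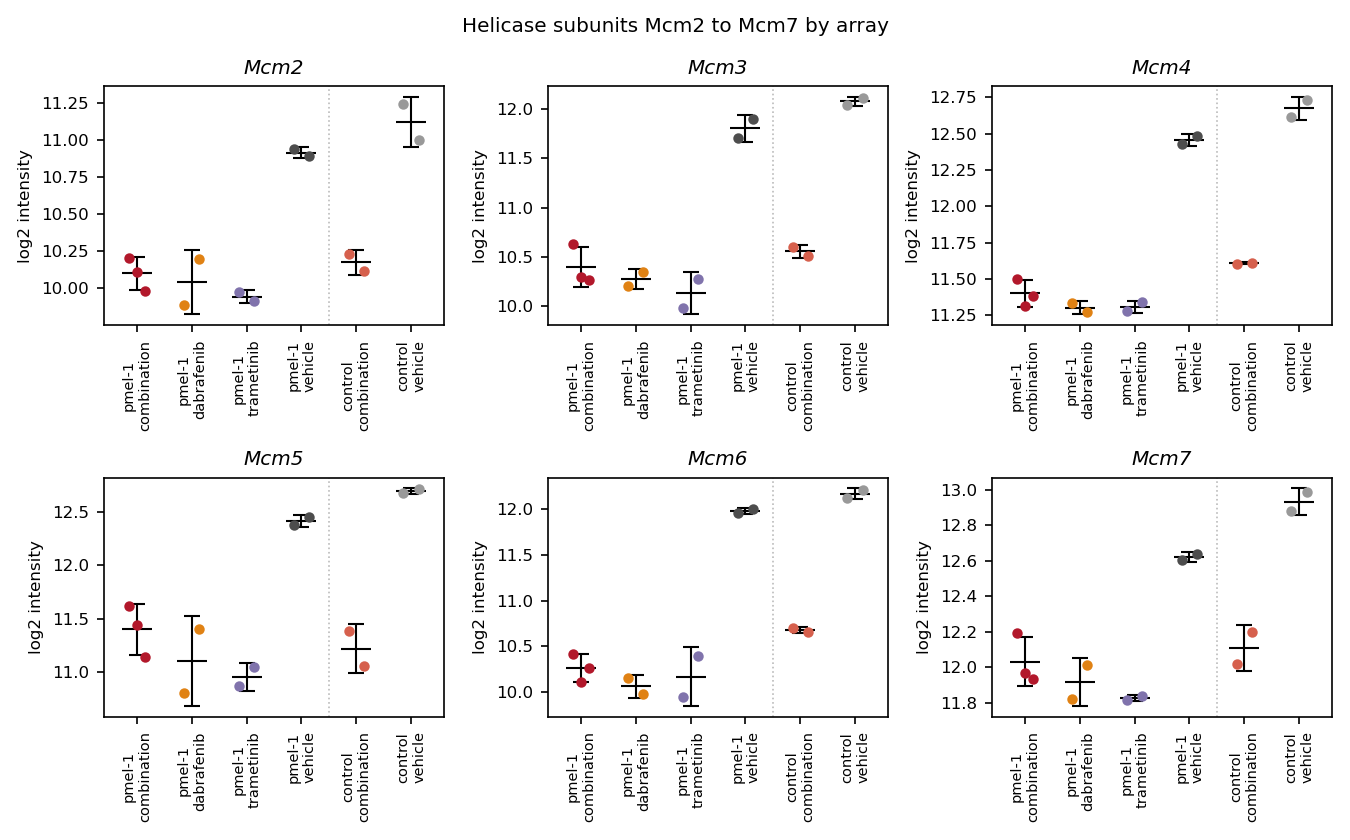
Log2 intensity of Mcm2 to Mcm7 on each array, with points for arrays and bars for the group mean ± SD (n = 3 for the pmel-1 combination, n = 2 otherwise); axes do not start at 0. In every panel the drug-treated arrays lie below the vehicle arrays of both kinds of recipient.

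All 4 factors that start the helicase fell, with a median change of -1.08. Cdc45 read 8.36, 8.07 and 8.08 in pmel-1 combination tumours, 7.81 and 7.75 under dabrafenib and 7.70 and 7.95 under trametinib, against 9.04 and 9.23 under vehicle. Cdc45 in control recipients read 8.18 and 7.99 with the combination, against 9.36 and 9.36 with vehicle. Cdc45, the partner of MCM and GINS in the active helicase, fell by 1.12 ± 0.09 (adjusted p = 2.45e-06), and no treated array reached a vehicle array. A dimmer probe set of Cdc45, still above 5.79 on every array, differed by -0.13, with overlap between combination and vehicle arrays. Mcm10 read 9.57, 9.46 and 9.13 in pmel-1 combination tumours, 8.84 and 9.32 under dabrafenib and 8.93 and 8.98 under trametinib, against 9.84 and 9.99 under vehicle. Mcm10 in control recipients read 9.19 and 9.002 with the combination, against 10.25 and 10.44 with vehicle. It fell by 0.89 ± 0.12 (adjusted p = 8.86e-05), and every drug-treated array lay below every vehicle array. A dimmer probe set of Mcm10, still above 5.79 on every array, differed by -0.27, with overlap between combination and vehicle arrays. The change of Mcm10 was -0.53 ± 0.16 (adjusted p = 0.02) in pmel-1 recipients and -1.25 ± 0.18 (adjusted p = 3.07e-04) in control recipients. The interaction, which tests the difference between these changes, was 0.72 ± 0.24 (adjusted p = 0.197). Without pmel-1 combination replicate 3 the change in pmel-1 recipients was -0.40, and without pmel-1 vehicle replicates 1 or 2 it was -0.60 or -0.45, none of which passed. The GINS subunits Gins1 and Gins2 changed by -1.37 ± 0.11 (adjusted p = 3.10e-06) and -1.03 ± 0.10 (adjusted p = 5.93e-06).

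Of the sliding clamp and the 5 subunits of its loader, 5 fell and Rfc2 did not pass, with a median of -0.94. Rfc3 read 8.01, 8.10 and 8.15 in pmel-1 combination tumours, 8.12 and 7.82 under dabrafenib and 7.92 and 7.95 under trametinib, against 9.19 and 9.30 under vehicle. Rfc3 in control recipients read 8.64 and 8.25 with the combination, against 9.44 and 9.41 with vehicle. It fell by 1.07 ± 0.09 (adjusted p = 4.33e-06), with no overlap between treated and vehicle arrays. Rfc2 read 10.61, 10.59 and 10.36 in pmel-1 combination tumours, 10.28 and 10.72 under dabrafenib and 10.35 and 10.46 under trametinib, against 10.26 and 10.36 under vehicle. Rfc2 in control recipients read 10.31 and 10.33 with the combination, against 10.50 and 10.60 with vehicle. Rfc2 changed by -0.01 ± 0.10 (adjusted p = 0.928), and its treated arrays overlapped the vehicle arrays. Its 3 probe sets all differed by -0.01, a mean over recipients in which the signs were opposite. They differed by 0.21, 0.42 and 0.35 in pmel-1 recipients and by -0.23, -0.45 and -0.37 in control recipients. The interaction did not pass for Rfc2, as for all 41 members. The direction of the Rfc2 change against vehicle turned under several alternatives. The clamp Pcna changed by -1.08 ± 0.11 (adjusted p = 1.22e-05), Rfc4 by -1.10 ± 0.12 (adjusted p = 2.50e-05) and Rfc5 by -0.80 ± 0.07 (adjusted p = 4.89e-06), with the large subunit Rfc1 at -0.45 ± 0.10 (adjusted p = 0.00198).

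Replication protein A, the complex of 3 subunits that coats single-stranded DNA, was the group whose subunits went different ways. Rpa2 read 9.61, 9.52 and 9.18 in pmel-1 combination tumours, 9.03 and 9.47 under dabrafenib and 9.04 and 9.16 under trametinib, against 10.66 and 10.44 under vehicle. Rpa2 in control recipients read 9.23 and 9.14 with the combination, against 10.66 and 10.45 with vehicle. Rpa2 fell by 1.24 ± 0.12 (adjusted p = 7.33e-06), and all treated arrays were below all vehicle arrays. Rpa1 read 12.45, 12.44 and 12.34 in pmel-1 combination tumours, 12.14 and 12.43 under dabrafenib and 12.17 and 12.13 under trametinib, against 11.91 and 12.003 under vehicle. Rpa1 in control recipients read 12.36 and 12.15 with the combination, against 12.17 and 12.28 with vehicle. Rpa1 rose by 0.24 ± 0.08 (adjusted p = 0.027) and was the member that went against the rest. The rise was 0.45 ± 0.11 (adjusted p = 0.00569) in pmel-1 recipients, where no combination array overlapped a vehicle array, and the value in control recipients was 0.03 ± 0.12 (adjusted p = 0.894), where they did. The test of this difference, the interaction, gave 0.42 ± 0.16 (adjusted p = 0.238). The rise over both kinds of recipient was lost without control combination replicate 2 (0.19), control vehicle replicate 1 (0.21), pmel-1 combination replicate 2 (0.23) or pmel-1 vehicle replicate 1 (0.22). With the 3' to 5' ratio as a covariate it was 0.15 (adjusted p = 0.244). The rise in pmel-1 recipients alone did not pass with that covariate, at 0.27 (adjusted p = 0.239), or without pmel-1 vehicle replicate 1, at 0.41 (adjusted p = 0.053). The other probe set of Rpa1 differed by 0.07. Rpa3, the small subunit, fell by 0.57 ± 0.11 (adjusted p = 0.00116), with a change of -0.75 ± 0.15 (adjusted p = 0.00174) in pmel-1 recipients and -0.38 ± 0.16 (adjusted p = 0.0938) in control recipients.

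All 8 subunits of the polymerases and primase fell over both kinds of recipient, with a median of -1.03. Pole2 read 7.34, 7.35 and 7.46 in pmel-1 combination tumours, 7.20 and 7.19 under dabrafenib and 6.67 and 6.73 under trametinib, against 8.96 and 8.91 under vehicle. Pole2 in control recipients read 7.69 and 7.68 with the combination, against 9.31 and 9.28 with vehicle. Pole2, the accessory subunit of polymerase epsilon, fell by 1.58 ± 0.06 (adjusted p = 2.46e-08), and its trametinib arrays were the lowest. Pold1 read 9.48, 9.48 and 9.01 in pmel-1 combination tumours, 8.68 and 9.40 under dabrafenib and 9.06 and 8.96 under trametinib, against 9.88 and 9.79 under vehicle. Pold1 in control recipients read 9.07 and 9.05 with the combination, against 10.09 and 10.25 with vehicle. Pold1, the catalytic subunit of polymerase delta, fell by 0.81 ± 0.15 (adjusted p = 6.67e-04), with wide spread in the dabrafenib and pmel-1 combination groups. In pmel-1 recipients alone the change of Pold1 with the combination, -0.51, did not pass, though it passed at -0.59 without pmel-1 combination replicate 1. With dabrafenib Pold1 changed by -0.80, and by -0.43 without dabrafenib replicate 1. The accessory subunit Pold2 changed by -1.61 ± 0.08 (adjusted p = 9.97e-08). The catalytic subunit Pole changed by -1.09 ± 0.10 (adjusted p = 6.30e-06), and the alpha and primase subunits Pola1, Pola2, Prim1 and Prim2 by -0.65, -1.13, -0.98 and -0.63, all of which passed.

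Both enzymes that finish lagging strand fragments fell. Lig1 read 10.35, 10.09 and 9.89 in pmel-1 combination tumours, 9.58 and 9.94 under dabrafenib and 9.78 and 10.03 under trametinib, against 10.75 and 10.76 under vehicle. Lig1 in control recipients read 10.05 and 9.90 with the combination, against 10.83 and 11.10 with vehicle. Lig1, the ligase that seals the fragments, fell by 0.82 ± 0.12 (adjusted p = 1.27e-04), and no treated array reached a vehicle array. Fen1 read 11.04, 10.58 and 10.52 in pmel-1 combination tumours, 10.48 and 10.74 under dabrafenib and 10.50 and 10.56 under trametinib, against 11.11 and 11.15 under vehicle. Fen1 in control recipients read 10.55 and 10.49 with the combination, against 11.28 and 11.53 with vehicle. Fen1, the nuclease that trims their flaps, fell by 0.65 ± 0.11 (adjusted p = 5.37e-04), and pmel-1 combination replicate 1 came nearest to the vehicle arrays. In pmel-1 recipients alone its change of -0.41 ± 0.15 (adjusted p = 0.0441) lost its call in 14 alternatives, 8 of which left out 1 of the 13 arrays, with values from -0.63 to -0.09. It was -0.09 (adjusted p = 0.627) without the 5 arrays with adipocyte or muscle signal and -0.63 (adjusted p = 0.0649) with the 3' to 5' ratio as a covariate.

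All 4 members of nucleotide supply fell over both kinds of recipient, with a median of -0.54, the smallest among the role groups. Tk1 read 9.02, 8.84 and 8.67 in pmel-1 combination tumours, 8.597 and 8.58 under dabrafenib and 7.84 and 8.05 under trametinib, against 10.12 and 10.10 under vehicle. Tk1 in control recipients read 9.43 and 8.76 with the combination, against 10.08 and 10.32 with vehicle. Tk1, the thymidine kinase of the salvage pathway, fell by 1.19 ± 0.13 (adjusted p = 2.15e-05), with its lowest arrays under trametinib. Rrm2 read 11.56, 11.50 and 11.29 in pmel-1 combination tumours, 11.03 and 11.56 under dabrafenib and 10.77 and 10.77 under trametinib, against 11.65 and 11.77 under vehicle. Rrm2 in control recipients read 11.67 and 11.29 with the combination, against 12.17 and 12.25 with vehicle. Rrm2, the regulated subunit of ribonucleotide reductase, fell by 0.50 ± 0.12 (adjusted p = 0.00417), although control combination replicate 2 read above pmel-1 vehicle replicate 1. Its change was -0.26 ± 0.16 (adjusted p = 0.208) in pmel-1 recipients and -0.73 ± 0.17 (adjusted p = 0.00728) in control recipients, and in control recipients it was -0.54 and did not pass without control combination replicate 3. Other probe sets of Rrm2 differed by -0.75 and -1.12. Rrm1, the large subunit, changed by -0.57 ± 0.07 (adjusted p = 5.08e-05). Tyms, thymidylate synthase, fell by 0.51 ± 0.10 (adjusted p = 0.00123) and was dim, reading under 5.79 on every drug-treated array, so no fold is given. Only vehicle arrays brought it past the filter, so this call is not support for a fall. Its other probe sets were dim too and differed by -0.16, 0.01 and -0.06.

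Both chromatin factors fell and had the largest group median, -1.56. Uhrf1 read 9.80, 9.65 and 9.50 in pmel-1 combination tumours, 9.20 and 9.66 under dabrafenib and 9.02 and 9.10 under trametinib, against 11.14 and 11.26 under vehicle. Uhrf1 in control recipients read 9.80 and 9.50 with the combination, against 11.65 and 11.55 with vehicle. Uhrf1, which reads hemimethylated DNA and brings Dnmt1 to new strands, fell by 1.75 ± 0.11 (adjusted p = 4.40e-07), and no treated array reached a vehicle array. Chaf1b read 8.07, 7.88 and 7.88 in pmel-1 combination tumours, 7.77 and 7.68 under dabrafenib and 7.63 and 7.79 under trametinib, against 9.57 and 9.23 under vehicle. Chaf1b in control recipients read 8.23 and 8.20 with the combination, against 9.39 and 9.64 with vehicle. Chaf1b, a subunit of the factor that deposits histones behind the fork, fell by 1.38 ± 0.09 (adjusted p = 7.09e-07), again with no overlap between treated and vehicle arrays.

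Within pmel-1 recipients 35 members fell and 1 rose with the combination, against 21.2% and 24.3% of all genes. Within control recipients 37 fell and 0 rose, against 16.7% and 18.7%. These comparisons share no array, and 34 members fell in both, where 13.1% of all genes did so. The median change was -1.02 in pmel-1 and -1.06 in control recipients. Across the 41 members the changes correlated with Pearson's r of 0.83 and Spearman's rho of 0.76, values that were 0.82 and 0.78 across all genes tested. The interaction called 0 of 41 members in limma, with 5 members at an unadjusted p under 0.05, while 0.283% of all genes were called. With the 3' to 5' ratio as a covariate 32 members fell in pmel-1 and 37 in control recipients. Without the 5 arrays with adipocyte or muscle signal 30 and 33 fell, in a fit that holds 1 pmel-1 combination array and 1 control vehicle array and takes their spread from the other groups.

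Either drug alone was followed by lower levels of most replication genes. With dabrafenib 36 members fell and 1 rose, against 19.6% and 21.9% of all genes, with a median change of -1.23. With trametinib 37 members fell and 0 rose, against 19.1% and 19.5%, with a median of -1.20. The pmel-1 vehicle arrays serve both comparisons, and the leukocyte markers averaged 9.33 to 9.94 with dabrafenib and 7.99 to 8.47 with trametinib. Cdc6 changed by -2.47 ± 0.20 (adjusted p = 1.05e-05) with dabrafenib and -2.58 ± 0.20 (adjusted p = 9.08e-06) with trametinib, and Mcm6 by -1.92 ± 0.15 (adjusted p = 1.01e-05) and -1.82 ± 0.15 (adjusted p = 1.53e-05). The member that rose with dabrafenib was Rpa1, 0.33 ± 0.12 (adjusted p = 0.0478), a call lost when any of 10 of the 13 arrays was left out, and its value with trametinib was 0.19 ± 0.12 (adjusted p = 0.246).

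**Figure D3:**
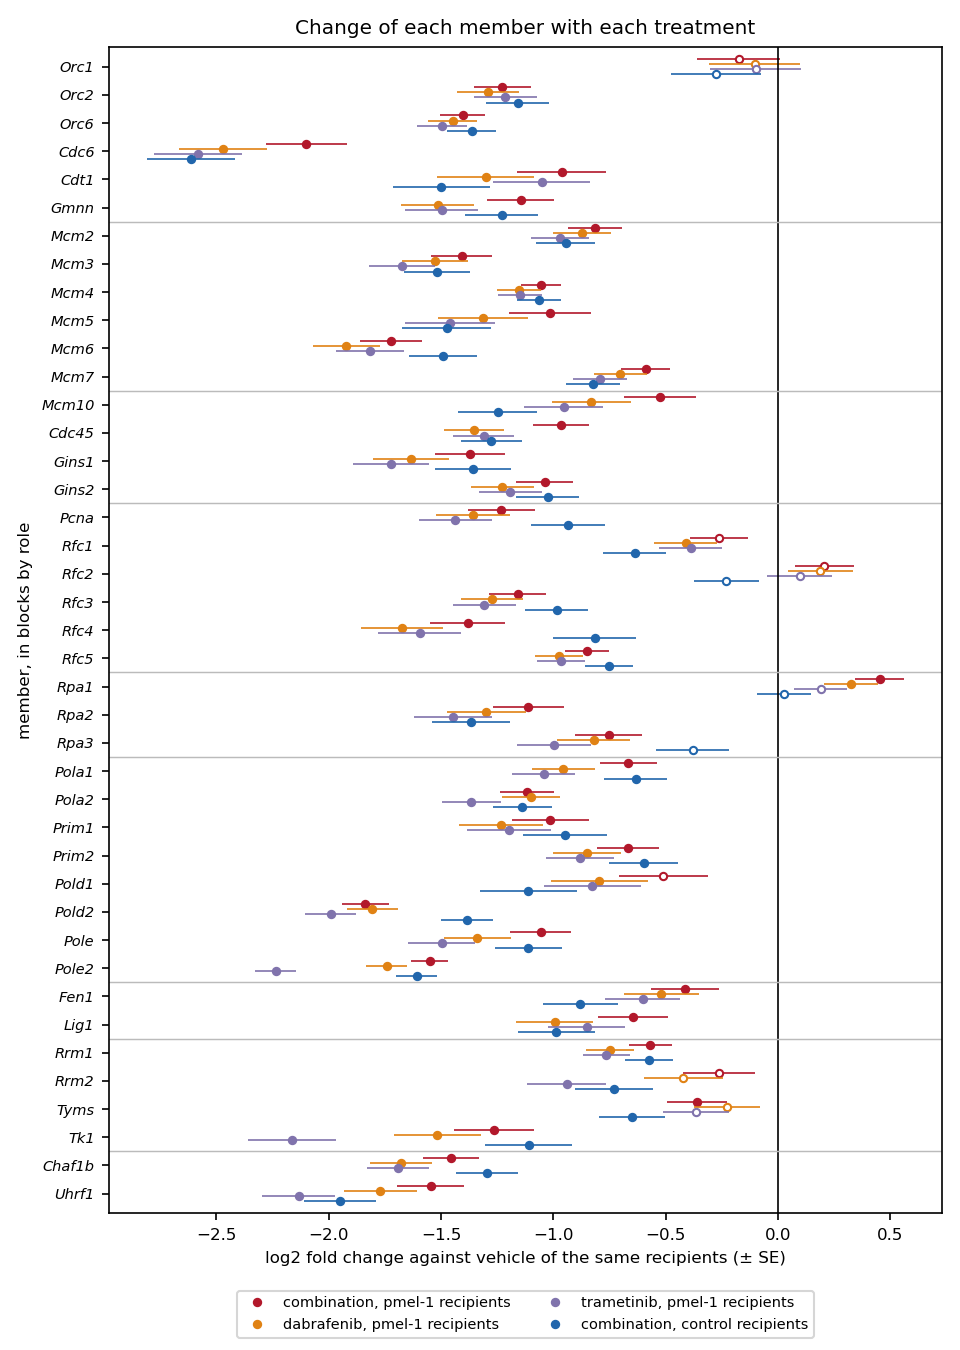
Log2 fold change ± SE of each of the 41 members against vehicle of the same recipients, for the combination, dabrafenib and trametinib in pmel-1 recipients and the combination in control recipients; filled points passed an adjusted p of 0.05 and open points did not. Most points lie between -2 and -0.5, with Cdc6 near -2.5 and Orc1, Rfc2 and Rpa1 near or above 0.

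Direct tests between the treatments of pmel-1 recipients called few members. Between dabrafenib and trametinib the call was for Pole2 alone, higher with dabrafenib by 0.49 ± 0.09 (adjusted p = 0.0352), against 0.588% of all genes called higher. Pole2 kept its direction without any array, at 0.46 to 0.53, but did not pass in 10 of 13 such fits, which left out each control array, each dabrafenib and trametinib array and each pmel-1 vehicle array. Tk1 and Rrm2 had the next smallest p-values and did not pass, with differences of 0.65 ± 0.19 (adjusted p = 0.178) and 0.52 ± 0.17 (adjusted p = 0.243). Their 95% intervals were 0.22 to 1.07 and 0.13 to 0.90. For Mcm6 the difference was -0.11 (95% interval -0.44 to 0.22).

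No member was called lower with the combination than with either drug alone. Between the combination and dabrafenib limma called 0 members and 0 genes, with 5 members and 246 genes at an unadjusted p under 0.05. The median member was 0.18 higher with the combination, and 37 of 41 were above 0. Between the combination and trametinib 2 members were higher with the combination, against 0.856% of all genes. They were Pole2 by 0.68 ± 0.08 (adjusted p = 0.00854) and Tk1 by 0.90 ± 0.18 (adjusted p = 0.0398). The median member was 0.21 higher and 39 of 41 were above 0. The combination arrays serve both comparisons. Pole2 did not pass without trametinib replicate 1 (0.65) or 2 (0.72), and Tk1 did not pass in 9 of the 13 fits that left out an array, with values of 0.79 to 1.01.

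Few members differed by test between the kinds of transfer. Under vehicle limma called 0 of 41 members and 0 of all genes between pmel-1 and control recipients, with 11 members and 1822 genes at an unadjusted p under 0.05. The median member was nevertheless -0.22, with 40 of 41 below 0, against a median of -0.02 for all genes. Cdc6 differed by -0.71 ± 0.20 between them (adjusted p = 0.192). Both vehicle arrays of pmel-1 recipients lay below both of control recipients for 32 of 41 members, and for 26.4% of all genes. Under the combination 3 members were lower in pmel-1 recipients, against 1.58% of all genes. They were Pold2 at -0.60 ± 0.10 (adjusted p = 0.0113), Rpa3 at -0.71 ± 0.15 (adjusted p = 0.0268) and Rfc4 at -0.71 ± 0.17 (adjusted p = 0.041). Here the 3' to 5' ratio differed between the groups, at 0.86 to 1.31 in pmel-1 against 0.19 to 0.42 in control recipients, and with that ratio as a covariate 0 members passed. Without control combination replicate 2 none of the 3 passed either, with Pold2 at -0.58 (adjusted p = 0.11), Rpa3 at -0.48 (adjusted p = 0.242) and Rfc4 at -0.38 (adjusted p = 0.316). Pold2 did not pass without control combination replicate 3, Rpa3 without pmel-1 combination replicates 1 or 2, and Rfc4 in 9 of the 13 fits that left out an array. With the mean of all its probe sets Rfc4 was at -0.35 (adjusted p = 0.126).

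Other genes of the replication fork fell with the members. Of 32 tested from a list of other replisome and origin genes 26 fell and 0 rose over both kinds of recipient, with a median of -0.60. Beside this count and the other list counts below, 24.5% of all genes tested were called lower and 28.1% higher. The fork protection pair Tipin and Timeless changed by -1.40 ± 0.09 and -1.23 ± 0.09, the nuclease Dna2 by -1.17 ± 0.11, and the initiation kinase Cdc7 with its activator Dbf4 by -0.83 ± 0.13 and -0.69 ± 0.10. Top2a, a topoisomerase that untangles DNA, was at -0.10 ± 0.08 and did not pass. Among 15 other genes of nucleotide metabolism 10 fell and 3 rose. Shmt1 of folate metabolism changed by -1.72 ± 0.08, Dut, which removes dUTP, by -1.60 ± 0.09, and Cad, which starts pyrimidine synthesis, by -1.38 ± 0.12. The 3 that rose were Samhd1, which breaks down deoxynucleotides, by 0.67 ± 0.15, the p53-inducible reductase subunit Rrm2b by 0.39 ± 0.08 and the mitochondrial kinase Tk2 by 0.26 ± 0.07. Of 11 other S phase chromatin genes 9 fell, among them Hells at -1.96 ± 0.09, Cdca7 at -1.84 ± 0.12 and the maintenance methyltransferase Dnmt1 at -0.70 ± 0.07. Of 8 checkpoint genes 5 fell, with Chek1 at -0.91 ± 0.12.

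Of 16 genes of the E2F, RB and DREAM families, the regulators of this programme, 8 fell and 3 rose, against 24.5% and 28.1% of all genes. The activator E2f1 changed by -1.002 ± 0.08, its dimer partner Tfdp1 by -1.13 ± 0.09 and Mybl2 by -2.07 ± 0.10. The repressors Rb1 and Rbl2 rose by 0.67 ± 0.12 and 0.59 ± 0.07, and Tfdp2 by 0.57 ± 0.09. Mitotic genes gave other counts. Of 14 tested 3 fell, including Aurkb at -0.92 ± 0.15 and Cdk1 at -0.65 ± 0.09, and 2 rose, Mki67 by 0.43 ± 0.12 and Ccnb2 by 0.37 ± 0.13, with a median of -0.07. The shares of all genes were again 24.5% lower and 28.1% higher. In control recipients 1 mitotic gene fell and 1 rose, against 16.7% and 18.7% of all genes. With trametinib 8 fell, against 19.1%. The difference between the lists was not tested.

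**Figure D4:**
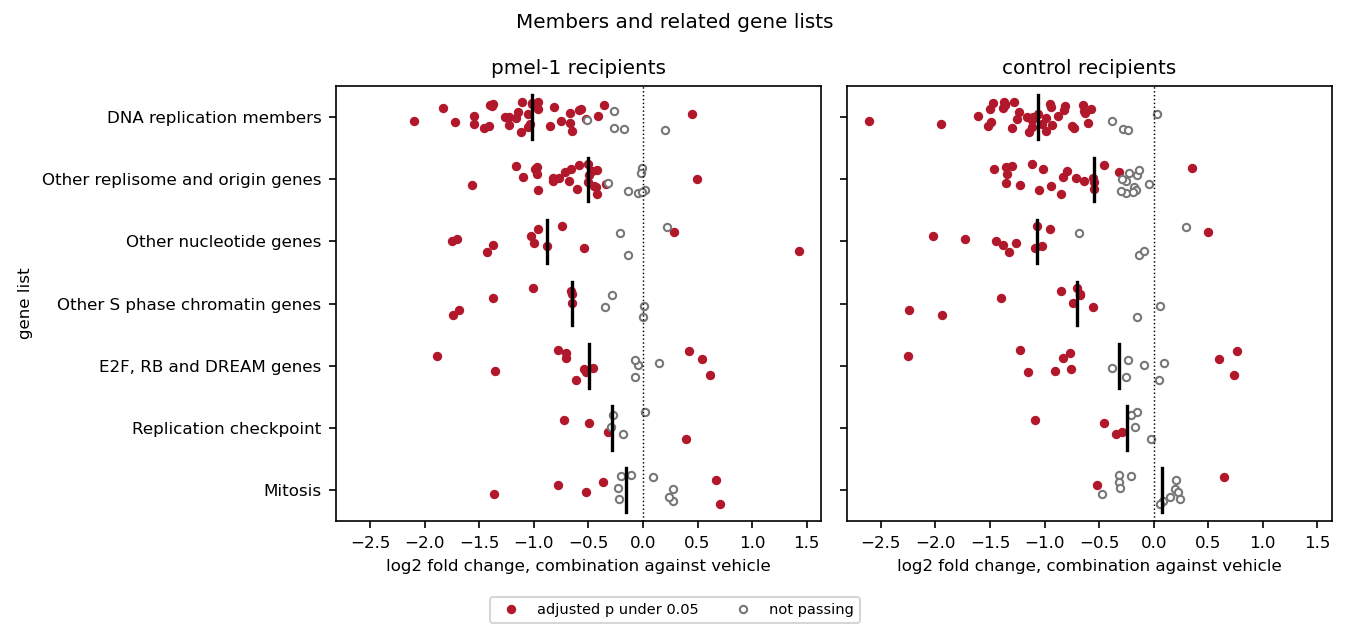
Log2 fold change with the combination against vehicle for each gene of the members and of 6 related lists, in pmel-1 recipients (left) and control recipients (right); filled points passed an adjusted p of 0.05, open points did not and the bar is the list's median. The members and the nucleotide genes have the lowest medians, and mitotic genes lie around 0.

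Most members were read by more than 1 probe set, which gave a check inside the array. The 41 members had 90 probe sets, 79 of them above 5.79 on at least 2 arrays. Of these 77 were lower and 2 were higher with the combination, and the 2 higher were those of Rpa1. Those 77 include values near 0, among them the sets of Rfc2 at -0.01. The share over all probe sets of the array was not computed, so these counts have no background beside them. The 38 sets that were not used had a median difference of -0.97, against -1.07 for those used. In 18 of 27 members with more than 1 such set another set fell further than the one used, among them Rpa2 (-1.87 against -1.24) and Rrm2 (-1.12 against -0.50). Some other sets above 5.79 on every array hardly moved, and their combination and vehicle arrays overlapped. Among them were sets of Cdc45 (-0.13 against -1.12), Mcm10 (-0.27 against -0.89) and Prim2 (-0.005 against -0.63).

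**Figure D5:**
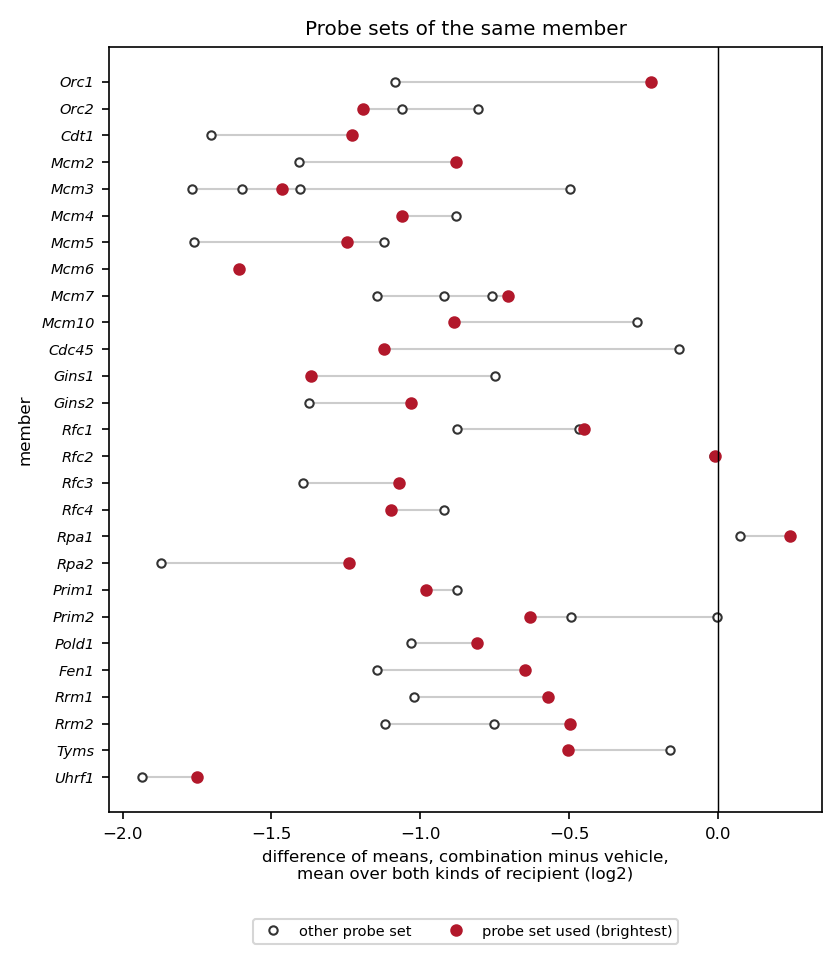
Difference of group means, combination minus vehicle and averaged over both kinds of recipient (log2), for each probe set above the filter level in the 27 members with more than 1 such set; filled points are the brightest set, which was used, and open points the others. All but the 2 sets of Rpa1 lie below 0.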

How the data were processed

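Total RNA of SM1 tumours was measured on 13 Affymetrix GeneChip mouse arrays. The deposited values are log2 intensities per probe set, made by the authors with RMA and the affy package per the submitters' processing notes, with no versions given there. Of 45101 probe sets, 34945 carry exactly 1 symbol in the platform annotation. The set with the highest mean was kept for each of 18193 symbols. The 13783 genes tested exceeded 5.79, which is the 40th percentile of non-control values, on at least 2 arrays. The 6 group means were estimated from all arrays by lmFit and compared by moderated tests of limma (version 3.58.1, R 4.3.3), so all groups share 1 variance per gene. The Benjamini-Hochberg adjustment ran over all genes of a comparison. The fit was tested on simulated data. The number of arrays limits the precision.

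Shown array by array were the members of each role group with the smallest and the largest p, any that went against its group, Mcm2 to Mcm7, and the 3 with the smallest p between the single drugs; Cdc6 was added after its values were seen. The members, lists, tests and alternatives were chosen with earlier results of these data known.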

Additional observations from a re-analysis of the deposited data

How the results depend on the processing

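The counts of members that fell with the combination or with either drug against vehicle stayed within 1.5 times under every alternative run, and leaving out each array in turn gave 38 to 40 members called over both, 32 to 37 in pmel-1 recipients, 34 to 38 in control recipients, 33 to 37 with dabrafenib and 34 to 37 with trametinib. The small counts moved. Between dabrafenib and trametinib the 1 call became 0 with the mean of all probe sets, with only the arrays compared, with median centring, with array weights, with the replicate block and without the 5 arrays with adipocyte or muscle signal, and it was 0 to 1 with an array left out. Between the combination and trametinib the 2 calls became 1 with the mean of all probe sets or median centring and 0 with the replicate block or without the 5 arrays, and 0 to 4 with an array left out. Between transfers under the combination the 3 calls became 1 with only the arrays compared, with the replicate block or without the 5 arrays, 0 with the 3' to 5' ratio as a covariate, and 0 to 3 with an array left out. Calls stayed at 0 for the combination against dabrafenib, for the transfer under vehicle and for the interaction in all alternatives. The fits without the 5 arrays hold 1 array each of the pmel-1 combination, dabrafenib, trametinib and control vehicle groups, assumed to vary like the other groups. The causes were not tested.

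Between arrays with the same replicate number the deviations from group means had a median r of -0.07 (23 pairs, 4 over 0.1). In groups of 2 arrays these deviations mirror each other, so the values cannot settle whether the numbers pair the samples. With the replicate block 38 members fell over both, 33 in pmel-1 recipients, 37 in control recipients, 34 with dabrafenib and 36 with trametinib.

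Of the 17 single values that changed sign, 8 came from leaving out an array, and all belong to comparisons in which that member had not passed. With an array left out Rfc2 ran from -0.039 to 0.028 over both kinds of recipient and from -0.031 to 0.41 with dabrafenib, Orc1 from -0.35 to 0.0073 in pmel-1 recipients, Rpa1 from -0.076 to 0.13 in control recipients, and Rrm2 from -0.11 to 0.42 between the combination and dabrafenib. Without the 5 arrays with adipocyte or muscle signal Orc1 was 0.057 over both kinds of recipient and 0.17 in pmel-1 recipients, and Rfc2 was 0.061 over both and -0.031 with dabrafenib. With the 3' to 5' ratio as a covariate Rfc2 was -0.093 with the combination in pmel-1 recipients, -0.11 with dabrafenib and -0.14 with trametinib. Rpa1 in control recipients was -0.0066 with the mean of all probe sets and -0.027 with the replicate block. Orc1 passed with the mean of all probe sets in every comparison with vehicle, at -0.80 to -0.40. That mean takes in a set under 5.79 on most arrays, so these passes lend no support to a fall of Orc1. The rise of Rpa1 over both kinds of recipient did not pass in 9 alternatives, at 0.15 to 0.29. Groups of 2 or 3 arrays limit all of these values.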
